A study of Mus musculus with 2 samples.

Results

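NR4A-high cells were adrenal cortical cells of the mouse with a high summed level of Nr4a1 and Nr4a2. They numbered 414 of the 6904 cells that passed the filters of both libraries. A cell was taken as NR4A-high when its Nr4a1 and Nr4a2 UMIs (unique molecular identifiers, which count captured RNA molecules) together made up at least 600 per 1000000 UMIs of the cell (CPM) and at least 5 UMIs. It also had to carry at least 200 CPM of Star, the carrier that brings cholesterol into mitochondria, and at least 2000 CPM of the nuclear RNA Malat1. The cells were thus chosen by the measured levels of these 4 genes, so these levels are descriptions and were not tested. Library 1 gave 290 NR4A-high cells of 4892 kept cells and library 2 gave 124 of 2012. Cells that passed the same Star and Malat1 minimums but lay under 600 CPM of Nr4a1 plus Nr4a2, called NR4A-low, numbered 3651 and 1601.

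The series held 1 group with 2 libraries of sorted cells from adrenal glands of male mice aged 15 weeks, wild type apart from the SF1-Cre transgene and the Rosa mTmG reporter, both of which all cells compared here share. SF1-Cre is active in steroid-producing lineages, and in mTmG Cre recombination replaces a membrane tdTomato with a membrane GFP. The 26 adrenals of the study were dissociated and cells positive for Vybrant DyeCycle Ruby and negative for DAPI were sorted before a droplet 3′ RNA assay (the labels do not tie animals to libraries). The libraries held 92905273 and 28023733 UMIs over 5040 and 2288 barcodes, and 4 barcode sequences occurred in both, of which 1 belonged to an NR4A-high cell.

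NR4A receptors (Nr4a1, Nr4a2 and Nr4a3) are orphan nuclear receptors whose genes are transcribed within a short time of hormone, calcium, growth factor or stress signals. In the adrenal cortex they are known as early targets of ACTH, which acts through cyclic AMP (cAMP) and protein kinase A, and of angiotensin II, which acts through calcium. NR4A proteins bind promoters of steroid enzyme genes such as the aldosterone synthase gene.

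Most of these cells carried RNA of both receptors. The cells were chosen by the sum of the pair, so finding both is partly set by that choice. The lower quartile of Nr4a2 was 227 CPM (5 UMIs) in library 1 and 187 CPM (3 UMIs) in library 2. UMIs of both genes were found in 279 NR4A-high cells of library 1 and 118 of library 2, Nr4a1 alone in 11 and 6, and Nr4a2 alone in none. Nr4a1 had more UMIs than Nr4a2 in 215 and 81 cells, fewer in 68 and 39, and it made up 59.4% and 58.2% of the summed UMIs of the pair. Library 1 reached higher levels: the sum of the pair had a median of 1156 CPM and a maximum of 4066 CPM in library 1, and a median of 812 CPM and a maximum of 1898 CPM in library 2. At least 1200 CPM was found in 138 NR4A-high cells of library 1 and in 19 of library 2.

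**Figure D1:**
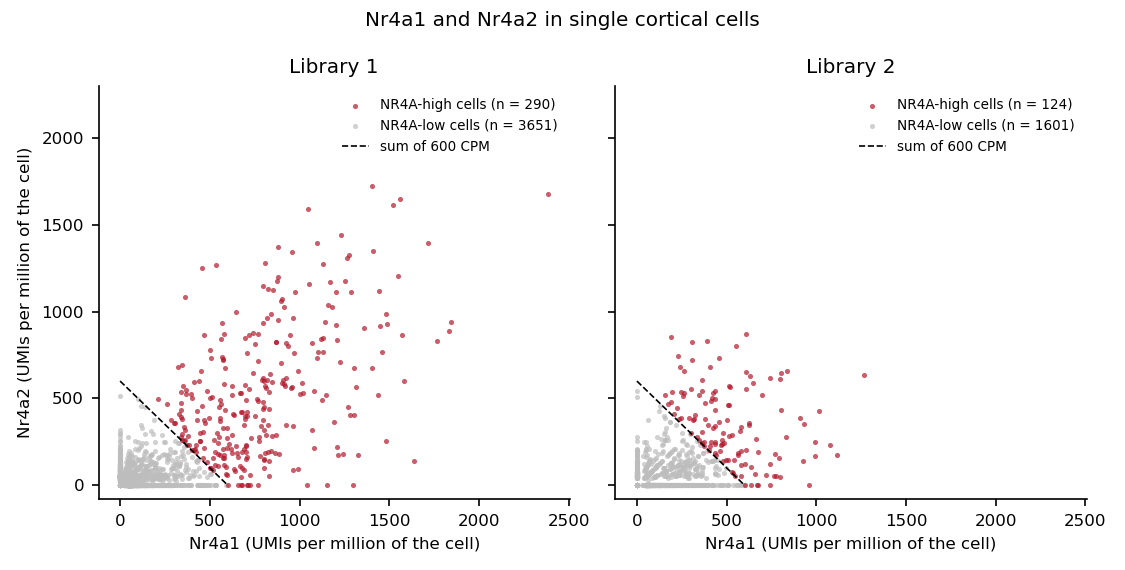
Each point is 1 cortical cell, with Nr4a1 on the x axis and Nr4a2 on the y axis, both in UMIs per 1000000 of the cell, and the dashed line marks a sum of 600 CPM. NR4A-high cells (290 and 124) lie above the line and mostly carry both genes, and those of library 1 reach higher than those of library 2.

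The threshold cut through a continuous range of levels. Just inside it, at 600 to under 700 CPM, lay 36 and 37 NR4A-high cells, the lowest at 600.6 and 600.1 CPM. Just outside it, at 500 to under 600 CPM, lay 34 and 50 NR4A-low cells, the highest at 595.5 and 599.9 CPM. Another 1 and 19 cells reached 600 CPM on fewer than 5 UMIs and were put in neither class. NR4A-high cells are therefore a range of a measured level and not a cell type.

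NR4A-high cells carried the RNAs of steroid-producing cells. Leaving out Star, which chose the cells, the 7 other cortex markers, which include Cyp11a1 and Nr5a1, summed to 17754 and 20931 CPM in NR4A-high cells of libraries 1 and 2, against 16342 and 16120 CPM in matched NR4A-low cells. The 7 did not move together. Fdx1 stood at 5994 and 8838 CPM against 3386 and 4071 CPM, while Hsd3b1 stood at 2895 and 3139 CPM against 4223 and 3190 CPM. The lowest of the 7 stood at 317 and 296 CPM in NR4A-high cells. The 8 zona glomerulosa markers summed to 4997 and 6790 CPM in NR4A-high cells, against 5754 and 6611 CPM in NR4A-low cells matched on Cyp11b2 and Cyp11b1. They were thus lower in library 1 and higher in library 2. The 4 zona fasciculata markers summed to 1494 and 2197 CPM, against 1373 and 1508 CPM, most of it from Akr1b7 (1260 and 1819 against 1121 and 1070 CPM). Markers of other cell types were low in NR4A-high cells. The 4 neutrophil and the 4 pericyte markers were all at 0 in both libraries, of 7 chromaffin markers 6 were at 0 in each library, Th and Dbh among them, and of 9 lymphocyte markers 5 and 9 were at 0. The lymphocyte markers summed to 4.49 and 0 CPM in NR4A-high cells, against 1.04 and 2.45 CPM in matched NR4A-low cells, with the B cell genes Cd79a, Cd79b and Ms4a1 at 2.01, 1.08 and 0.929 CPM in NR4A-high cells of library 1 against 0.345, 0.251 and 0.220 CPM. Endothelial markers summed to 8.67 and 2.23 CPM in NR4A-high cells, against 7.72 and 7.95 CPM. In library 1 both lists were thus higher in NR4A-high cells and in library 2 lower, and their part in the results was not tested. The 9 macrophage markers summed to 8.05 and 5.35 CPM in NR4A-high cells, against 20.9 and 51.5 CPM in matched NR4A-low cells, with Csf1r and Adgre1 at 0 in NR4A-high cells of both libraries.

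NR4A-high cells made up 7.36% of cortical cells in library 1 (290 of 3942, exact 95% interval 6.56 to 8.22) and 7.11% in library 2 (124 of 1744, 5.95 to 8.42). Intervals here are Clopper-Pearson intervals and cover counting error only. With cells thinned to 5000 UMIs, which left out 55 and 180 shallower cortical cells, and a minimum of 3 UMIs of the pair, the shares were 9.08% (8.20 to 10.0) and 11.6% (10.0 to 13.3). Of the barcodes with Star under 200 CPM, 2 of 105 (1.90%) and 1 of 88 (1.14%) reached the NR4A threshold, at median depths of 3737 and 3726.5 UMIs against 19052.5 and 15840 UMIs in cortical cells. Thinned in the same way, 4 of 47 (8.51%, 2.37 to 20.4) and 2 of 30 (6.67%, 0.818 to 22.1) of these Star-low barcodes did, and their intervals hold the thinned shares of cortical cells. A lower share in Star-low barcodes was thus not detectable at this depth.

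The share differed with the level of Cyp11b2, 1 gene of the outer, aldosterone-producing zone. Cyp11b2 encodes aldosterone synthase of the zona glomerulosa and Cyp11b1 the enzyme that completes corticosterone synthesis in the zona fasciculata; these are close paralogs, and reads may be shared between them. Among cells with no Cyp11b2 UMI, NR4A-high cells made up 5.47% in library 1 (4.57 to 6.48) and 2.61% in library 2 (1.77 to 3.71). With Cyp11b2 above 0 and under 200 CPM the shares were 10.2% (8.55 to 12) and 8.98% (6.10 to 12.6), and at 200 CPM or more they were 9.35% (6.76 to 12.5) and 23.8% (18.9 to 29.3). In library 1 the upper bins of Cyp11b2 overlapped in their intervals, and in library 2 all 3 bins were apart.

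Along Cyp11b1 the order was reversed. Under 200 CPM of Cyp11b1 the shares were 8.75% (7.76 to 9.83) and 8.02% (6.56 to 9.69), from 200 to under 1000 CPM they were 4.16% (2.71 to 6.08) and 6.36% (3.52 to 10.4), and at 1000 CPM or more they were 1.78% (0.719 to 3.64) and 3.97% (2.07 to 6.84). The lowest and the highest Cyp11b1 bin did not overlap in library 1 and overlapped narrowly in library 2. Thinned to 5000 UMIs, the shares at 200 CPM or more of Cyp11b2 were 13.3% (10.2 to 16.9) and 30.5% (24.7 to 36.7), against 6.65% (5.66 to 7.77) and 5.41% (4.09 to 7.0) with no Cyp11b2 UMI.

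**Figure D2:**
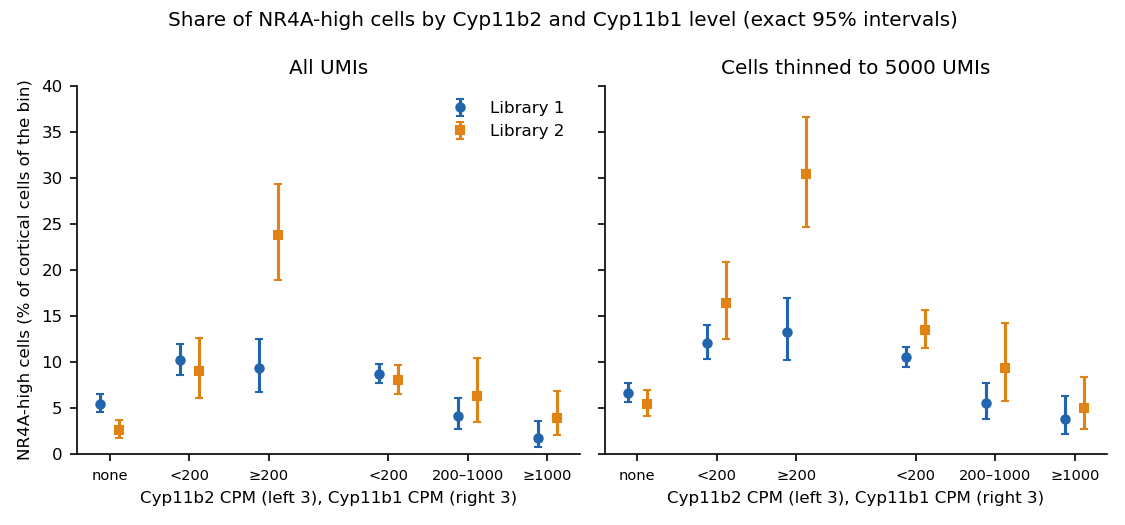
Points give NR4A-high cells as a percentage of the cortical cells of each Cyp11b2 or Cyp11b1 bin (x axis, CPM) with exact 95% intervals, for library 1 (circles) and library 2 (squares), on all UMIs (left) and on cells thinned to 5000 UMIs (right). In library 2 the share is 23.8% at 200 CPM or more of Cyp11b2 and 2.61% with none, and in library 1 it is 9.35% and 5.47%.

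Which other genes differed in NR4A-high cells was asked against NR4A-low cells matched on library, Cyp11b2 bin, Cyp11b1 bin and depth, up to 5 for each NR4A-high cell, with UMIs summed per library and class. Matching gave 1450 and 479 NR4A-low cells, with median depths of 19975 and 17950 UMIs in NR4A-high cells against 20013 and 17620 UMIs in matched NR4A-low cells. In library 1 the Cyp11b2 bins were matched in proportion. In library 2 the pool of cells with 200 CPM or more of Cyp11b2 ran short, so these were 52.4% of NR4A-high cells and 42.0% of matched NR4A-low cells. Mitochondrial UMIs had medians of 6.76% and 6.46% in NR4A-high cells against 5.99% and 5.74% in matched NR4A-low cells. With a stricter limit of 15% mitochondrial UMIs, all 108 genes called below were called again.

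The choice of cells set Nr4a1 and Nr4a2 apart by construction. Nr4a1 summed to 836 and 492 normalised CPM (scaled by edgeR's TMM factors) in NR4A-high cells, against 49.3 and 93.6 in matched NR4A-low cells. Nr4a2 summed to 570 and 353 in NR4A-high cells, against 33.4 and 51.6. Star stood at 3812 and 3410 normalised CPM in NR4A-high cells against 2863 and 2673, and Malat1 at 25109 and 26778 against 26556 and 26619. Cyp11b2 stood at 108 and 285 against 98.3 and 175, and Cyp11b1 at 108 and 218 against 116 and 261.

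Of 11483 genes tested beside these 6, edgeR's quasi-likelihood test with Benjamini-Hochberg adjustment and a threshold of 0.05 called 96 higher (0.836% of genes tested) and 12 lower (0.105%) in NR4A-high cells, 0.941% in all. Of these, 44 were at least 2-fold higher and 6 at least 2-fold lower, and 107 of the 108 had the same sign in both libraries. The single-library log2 difference was larger in library 1 for 79 of the 96 genes called higher and in library 2 for 17. For 91 of the 96, both NR4A-high sums lay above both matched NR4A-low sums, which was so for 1256 of all 11483 genes (10.9%), and since the test chose the 96, nothing is read from this. The fit had 4 sums and 1 residual degree of freedom, so the spread of each gene was drawn toward that of other genes, and 0 genes passed without the library term (363 at an unadjusted p under 0.05). DESeq2 called 66 higher and 1 lower. An alternative with a block for each library and bin split the same 2 libraries by bin. It used all NR4A-low cells of each bin, not matched on depth. Its 6 residual degrees of freedom rest on bins of the same libraries and not on further replicates. It called 443 higher and 224 lower of 10137 genes fitted. RLE scaling in place of TMM called 206 and 36 of 11489.

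The gene of salt-inducible kinase 1, Sik1 (ENSMUSG00000024042, chromosome 17, 31844250 to 31855804, mm10), had the largest fitted rise. Its kinase is induced by CREB, the transcription factor that cAMP signalling activates, and restrains the co-activators of CREB. Sik1 stood at 66.1 and 26.6 normalised CPM in NR4A-high cells, against 2.07 and 4.31 in matched NR4A-low cells. Both NR4A-high sums lay above both NR4A-low sums. The fitted log2 difference was 4.17 ± 0.45 (SE of the fit, n = 2 libraries, edgeR adjusted p 0.0103), with 4.89 in library 1 alone and 2.58 in library 2 alone. This SE, like the others given after ±, was derived from edgeR's test statistic, with spread drawn toward that of other genes. Such an SE does not measure how far apart the 2 libraries lie. Crem encodes cAMP-responsive repressors that include the inducible early repressor, and it stood at 155 and 117 normalised CPM in NR4A-high cells, against 43.6 and 48.3 (log2 difference 1.59 ± 0.13, edgeR adjusted p 0.00363). Sik1 and Crem had been named as markers of these cells from earlier results of the same data, so their rise is not independent of that choice.

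Nr4a3, the NR4A receptor that the choice of cells did not use, rose with the other receptors. It stood at 302 and 213 normalised CPM in NR4A-high cells, against 88.1 and 128 in matched NR4A-low cells, so the groups did not overlap. The log2 difference was 1.30 ± 0.21 (edgeR adjusted p 0.0392), with 1.78 in library 1 alone and 0.73 in library 2 alone, and it did not pass with DESeq2 (adjusted p 0.646).

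Genes listed as cAMP and CREB targets made up the list with the most calls. Of 23 measured members, 11 rose and 0 fell, with a median log2 difference of 1.16, against -0.00 over all genes tested, of which 0.836% rose. The list was written with earlier results of these data known, which makes its direction no independent evidence. Besides Sik1, Crem and Nr4a3, the members called were Nfil3, Pde10a, Per1, Irs2, Gem, Ppp1r15a, Gadd45b and Rgs2.

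Nfil3, a basic leucine zipper repressor, stood at 132 and 61.4 normalised CPM in NR4A-high cells, against 14.1 and 23.6 in matched NR4A-low cells (log2 difference 2.49 ± 0.36, edgeR adjusted p 0.0295). Pde10a, a phosphodiesterase that breaks down cAMP and cyclic GMP, stood at 343 and 307 against 62.5 and 107 (2.02 ± 0.19, edgeR adjusted p 0.00537). Per1, a clock gene that cAMP also induces, stood at 43.7 and 26.2 against 8.27 and 12.9 (1.87 ± 0.29, edgeR adjusted p 0.0364). In each of these genes both NR4A-high sums lay above both NR4A-low sums, and library 1 showed the larger difference. Irs2, which links the insulin receptor to its signalling, stood at 68.4 and 35.6 against 15.7 and 16.4 (1.76 ± 0.22, edgeR adjusted p 0.0162). Nfil3 did not pass with DESeq2 (adjusted p 0.407).

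Some members of the list had higher values in NR4A-high cells of both libraries and did not pass in the main fit. Fosb stood at 49.8 and 51.5 normalised CPM in NR4A-high cells, against 4.73 and 33.1 (log2 difference 2.05 ± 0.53, edgeR adjusted p 0.177). Its spread between libraries was wide. Fosb passed with RLE scaling (edgeR adjusted p 0.0263) and a block for each library and bin (edgeR adjusted p 2.31e-05). It also passed after thinning (edgeR adjusted p 1.61e-12). The fit on thinned cells drew the spread of each gene fully to that of other genes, so no gene had its own spread. Fosb did not pass with 1 matched cell (edgeR adjusted p 0.0981) or against all NR4A-low cells, unmatched (edgeR adjusted p 0.173). Pde4d, another phosphodiesterase of cAMP, stood at 8.14 and 7.73 against 1.12 and 2.49 (2.35 ± 0.41, edgeR adjusted p 0.0514). Dusp1, a phosphatase of MAP kinases, stood at 29.9 and 57.5 against 21.7 and 39.4 (0.50 ± 0.12, edgeR adjusted p 0.148).

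Of 35 measured AP-1 and early response factors, 6 rose and 0 fell, with a median log2 difference of 0.36. The count was 13 higher and 1 lower with RLE scaling, and 17 higher and 2 lower of 33 with a block for each library and bin. Over all genes fitted, RLE scaling called 206 higher and 36 lower of 11489, and the blocks 443 higher and 224 lower of 10137. The main fit called 0.836% of all genes tested higher and 0.105% lower. Fos, which pairs with Jun proteins, stood at 38.9 and 115 normalised CPM in NR4A-high cells, against 12.7 and 43.5 in matched NR4A-low cells (log2 difference 1.5 ± 0.11, edgeR adjusted p 0.00292). The libraries differed in level, library 2 being higher in each class, and the groups overlapped across libraries but not within them. Egr1, a zinc finger factor of the early response, stood at 39.8 and 23.6 against 10.8 and 11.7 (1.57 ± 0.22, edgeR adjusted p 0.0238). Egr1 did not pass against all NR4A-low cells, unmatched (edgeR adjusted p 0.0575), or at a threshold of 1200 CPM (edgeR adjusted p 0.139). Klf4, Dusp5, Ier2 and Btg1 were the other members called, with log2 differences of 1.71, 1.90, 1.51 and 1.05. Jun itself stood at 196 and 258 against 198 and 261 (-0.02 ± 0.07, edgeR adjusted p 0.979). Junb stood at 66.9 and 154 against 48.9 and 76.5 (0.72 ± 0.14, edgeR adjusted p 0.0692). Junb passed with RLE scaling (edgeR adjusted p 0.00915), against all NR4A-low cells (edgeR adjusted p 0.0364) and with DESeq2 (adjusted p 0.0431). It also passed with a block for each library and bin and after thinning, a fit that gave no gene its own spread. It did not pass with 1 matched cell (edgeR adjusted p 0.0781).

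Sequences just upstream of the NR4A genes and of genes that rose are shown because TGACG, the core of the cAMP response element that CREB binds, recurs in them. Windows are the 250 bases before the RefSeq transcription start (GRCm38.p6, coding strand, 5′ to 3′), and capitals mark TGACG on either strand, which reads CGTCA when it lies on the other strand. The windows lie at chr15:101266596-101266845 (plus strand) for Nr4a1, chr2:57124004-57124253 (minus) for Nr4a2, chr4:48045055-48045304 (plus) for Nr4a3, chr1:55052520-55052769 (plus) for Coq10b and chr12:85473640-85473889 (plus) for Fos.
Nr4a1: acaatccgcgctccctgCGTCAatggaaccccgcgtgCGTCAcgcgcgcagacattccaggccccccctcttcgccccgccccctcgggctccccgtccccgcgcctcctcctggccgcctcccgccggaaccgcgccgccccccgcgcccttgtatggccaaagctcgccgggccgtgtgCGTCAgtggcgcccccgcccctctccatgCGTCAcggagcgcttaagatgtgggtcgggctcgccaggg
Nr4a2: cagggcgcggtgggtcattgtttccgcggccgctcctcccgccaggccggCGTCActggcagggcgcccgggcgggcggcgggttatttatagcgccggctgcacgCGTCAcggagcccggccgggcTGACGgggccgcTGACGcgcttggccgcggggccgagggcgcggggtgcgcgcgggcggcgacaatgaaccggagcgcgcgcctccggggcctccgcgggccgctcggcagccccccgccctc
Nr4a3: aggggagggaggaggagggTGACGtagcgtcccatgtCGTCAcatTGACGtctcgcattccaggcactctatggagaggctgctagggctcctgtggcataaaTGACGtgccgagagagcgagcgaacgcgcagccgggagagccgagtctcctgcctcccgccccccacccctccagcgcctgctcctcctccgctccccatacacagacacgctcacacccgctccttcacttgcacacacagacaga
Coq10b: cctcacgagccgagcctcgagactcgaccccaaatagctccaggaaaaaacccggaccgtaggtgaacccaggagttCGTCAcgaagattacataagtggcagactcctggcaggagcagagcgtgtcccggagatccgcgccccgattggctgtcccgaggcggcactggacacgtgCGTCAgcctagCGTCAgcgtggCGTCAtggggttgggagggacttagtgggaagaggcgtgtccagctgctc
Fos: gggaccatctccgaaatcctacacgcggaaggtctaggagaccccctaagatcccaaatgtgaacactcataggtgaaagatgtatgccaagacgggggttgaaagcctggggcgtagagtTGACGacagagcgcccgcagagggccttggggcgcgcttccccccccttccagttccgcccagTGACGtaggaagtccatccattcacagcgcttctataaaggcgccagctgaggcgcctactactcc

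Each of the Nr4a1, Nr4a2, Nr4a3 and Coq10b windows held 4 copies of TGACG and that of Fos held 2. In Nr4a1 they began 233, 213, 69 and 40 bases before the start, and in Coq10b 173, 72, 61 and 50 bases before it. Other large rises had fewer copies. The windows of Acvr1c, Kcnk5, Pde10a, Cpeb4 and Irs2 held 0, those of Nfil3, Per1 and Klf4 held 1, and Sik1 had no window. Over both strands, and counting overlapping copies, 43 of the 66 genes called higher that had a window held at least 1 copy (65.2%), against 31.9% of 8935 tested genes with a window and 17.8% of all 32851 windows. Of the 10 genes called lower that had a window, 0 did. At least 4 copies were held by 2 of the 66, Nr4a3 and Coq10b (3.03%), against 0.414% of tested genes. The full palindrome, TGACG followed by TCA, was held by 5 of the 66 (7.58%) against 3.23%. These matches describe letters and not bound sites.

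Some genes of cholesterol supply rose in NR4A-high cells. Of 26 measured cholesterol synthesis and SREBP genes, 5 rose and 0 fell, with a median log2 difference of 0.30. Of the same 26, 8 were called higher with RLE scaling and 3 with 1 matched cell. Over all genes fitted, these settings called 206 of 11489 and 49 of 10839 higher. The 3 described here and Hmgcs1 were named after their values were seen. Insig1, which holds back SREBP, stood at 90.8 and 129 normalised CPM in NR4A-high cells, against 42.7 and 72.2 in matched NR4A-low cells (0.97 ± 0.10, edgeR adjusted p 0.00818), and the groups did not overlap. The synthesis enzyme Idi1 stood at 116 and 197 in NR4A-high cells, against 68.6 and 107 (0.82 ± 0.08, edgeR adjusted p 0.00744). Cyp51, another enzyme of the pathway, stood at 72.2 and 144 against 43.7 and 89.9 (0.70 ± 0.09, edgeR adjusted p 0.0177). The groups overlapped across libraries in Cyp51 and not in Idi1, and in each library NR4A-high cells were higher in both genes. Hmgcs1, an early enzyme of the pathway, stood at 123 and 199 against 55.2 and 147 (0.81 ± 0.15, edgeR adjusted p 0.0692) and did not pass.

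Of 19 measured steroid synthesis genes, 3 rose, Fdx1 and Scarb1 among them, and 0 fell. With a block for each library and bin 6 were called higher and 1 lower, beside 443 and 224 of all 10137 genes fitted. Fdx1 (chromosome 9, 51943306 to 51963556) encodes ferredoxin, which passes electrons to the mitochondrial P450 enzymes of steroid synthesis. It stood at 6428 and 8502 normalised CPM in NR4A-high cells, against 3541 and 3772 in matched NR4A-low cells, and the groups did not overlap (log2 difference 1.02 ± 0.08, edgeR adjusted p 0.00292). In library 1, where the Cyp11b2 bins were matched in proportion, the difference was 0.86, and in library 2 it was 1.17. Scarb1, the receptor that takes up HDL cholesterol, named after its values were seen, stood at 402 and 606 against 245 and 310 (0.84 ± 0.08, edgeR adjusted p 0.00537). Alas1, the first enzyme of heme synthesis, which no list held and which was named after its values were seen, stood at 776 and 941 against 533 and 547 (0.66 ± 0.07, edgeR adjusted p 0.0103).

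The enzymes of the pathway itself did not pass in the main fit. Cyp11a1, which cleaves the side chain of cholesterol, stood at 3373 and 3102 normalised CPM in NR4A-high cells, against 3263 and 3096 (0.03 ± 0.05, edgeR adjusted p 0.938). Cyp21a1, the 21-hydroxylase, stood at 4974 and 4290 against 4981 and 4253 (0.01 ± 0.05, edgeR adjusted p 0.998). Hsd3b1 stood at 3105 and 3019 against 4417 and 2956, with opposite signs in the libraries (-0.24 ± 0.11, edgeR adjusted p 0.568). Hsd3b1 was called lower with a block for each library and bin (-0.26, edgeR adjusted p 0.0189) and after thinning (-0.25, edgeR adjusted p 0.000532). The fit after thinning gave no gene its own spread between libraries. Hsd3b6, the isoform of the outer zone, also had opposite signs (0.02 ± 0.17, edgeR adjusted p 0.991).

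Upstream genes of ACTH signalling held 1 call. Of 29 measured genes of the ACTH receptor, adenylyl cyclase, phosphodiesterase and protein kinase A list, 1 rose, Pde10a, and 0 fell. With a block for each library and bin, 4 of 25 were higher and 1 lower. Over all genes, the main fit called 0.836% higher, and these blocks called 443 higher and 224 lower of 10137. Mc2r, the ACTH receptor, stood at 340 and 285 normalised CPM in NR4A-high cells, against 358 and 292 (-0.06 ± 0.07, edgeR adjusted p 0.879), and its accessory protein Mrap at 109 and 130 against 123 and 109 (0.02 ± 0.11, edgeR adjusted p 0.986). Of 39 genes of angiotensin, potassium channel and calcium signalling, 2 rose and 0 fell, against 7 higher of 38 with these blocks. These were Rgs2 (0.60 ± 0.10, edgeR adjusted p 0.0412) and Rgs4 (0.48 ± 0.07, edgeR adjusted p 0.0274), which shorten signalling by G protein-coupled receptors. Rgs2 did not pass against all NR4A-low cells, unmatched (edgeR adjusted p 0.109), nor Rgs4 with 1 matched cell (edgeR adjusted p 0.113).

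Of 18 measured adrenal identity factors, 2 rose, against 0.836% of all genes tested. Cited2, a co-activator needed for adrenal development, stood at 382 and 311 normalised CPM in NR4A-high cells, against 148 and 153 (1.21 ± 0.09, edgeR adjusted p 0.00292). Nr5a1, the gene of SF1, stood at 418 and 332 against 289 and 256 (0.46 ± 0.07, edgeR adjusted p 0.0364), and did not pass with 1 matched cell (edgeR adjusted p 0.0864) or at 1200 CPM (edgeR adjusted p 0.172). The transgene features moved the same way, with Cre, named after its values were seen, at 103 and 134 against 45.8 and 58.9 (1.17 ± 0.09, edgeR adjusted p 0.00292) and eGFP at 3640 and 4459 against 2926 and 3156 (0.41 ± 0.06, edgeR adjusted p 0.0305). The call of eGFP was lost with 1 matched cell (edgeR adjusted p 0.0652) and at 300 CPM (edgeR adjusted p 0.106). Nr0b1, which represses SF1, stood at 16.9 and 23.2 against 19.9 and 16.8 and did not pass (0.04 ± 0.20, edgeR adjusted p 0.98).

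**Figure D3:**
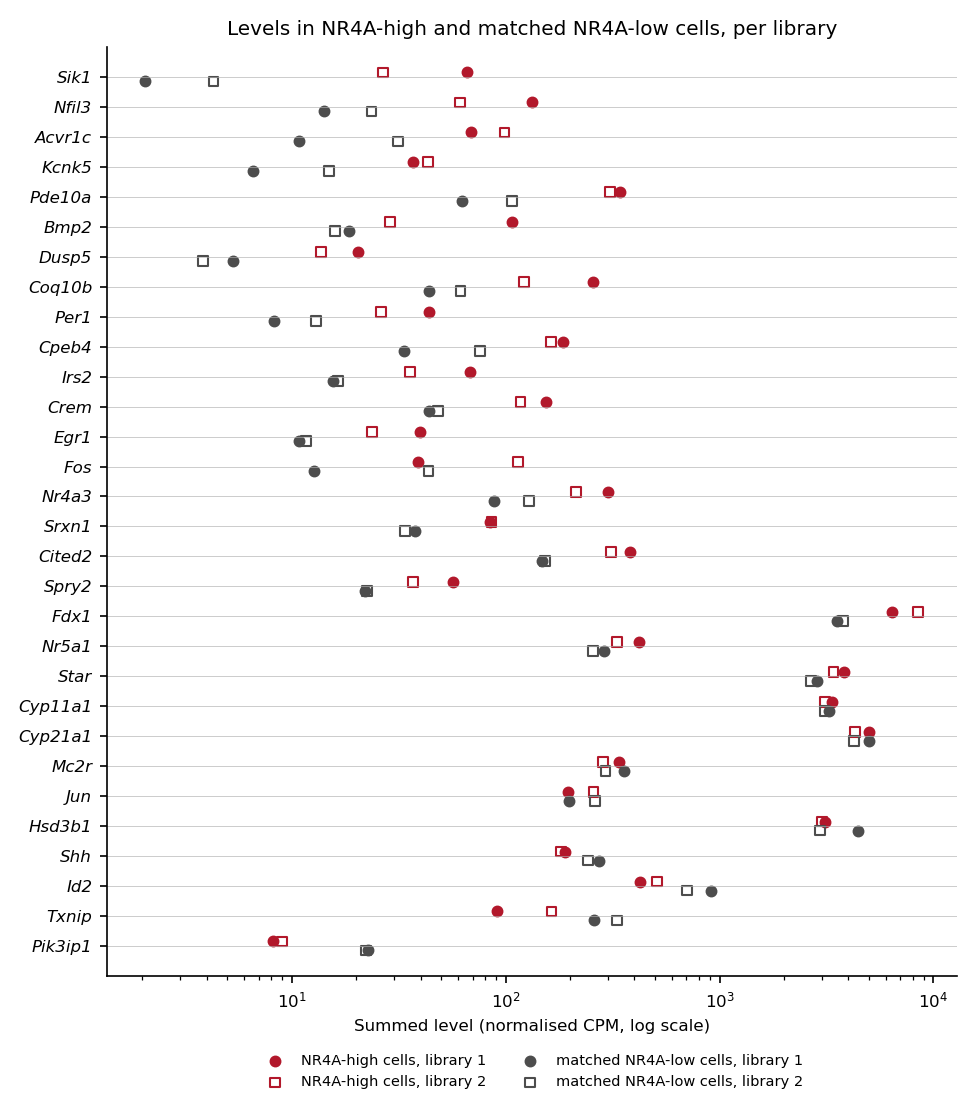
Summed levels (x axis, normalised CPM, log scale) of 30 genes in NR4A-high cells (red) and matched NR4A-low cells (grey), with library 1 as filled circles and library 2 as open squares. From Sik1 down to Nr5a1 the red symbol of each library lies to the right of its grey one, Cyp11a1, Cyp21a1, Mc2r and Jun nearly coincide, and from Shh to Pik3ip1 the red symbols lie to the left.

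Among the largest rises were also genes outside the lists. Acvr1c, a receptor for activin-type ligands, stood at 69.1 and 98.7 normalised CPM in NR4A-high cells, against 10.8 and 31.4 (2.20 ± 0.22, edgeR adjusted p 0.00709). Kcnk5, a potassium leak channel, stood at 37.0 and 43.4 against 6.60 and 15.0 (2.07 ± 0.23, edgeR adjusted p 0.0103). Bmp2, a secreted ligand of the BMP family, stood at 107 and 28.8 against 18.4 and 15.9 (1.99 ± 0.32, edgeR adjusted p 0.0385). In all 3 genes the groups did not overlap, and the libraries differed most in Bmp2, at 2.52 in library 1 alone and 0.85 in library 2 alone. Coq10b, a binding protein of coenzyme Q, and Cpeb4, which controls translation, rose by 1.88 and 1.85 on the log2 scale. Bmp2, Coq10b and Cpeb4 did not pass with DESeq2 (adjusted p 1.00, 0.75 and 0.317), nor Coq10b with 1 matched cell (edgeR adjusted p 0.0646).

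Genes that fell were fewer and mostly of moderate level. Txnip, which binds thioredoxin and limits glucose uptake, stood at 90.8 and 164 normalised CPM in NR4A-high cells, against 260 and 330 in matched NR4A-low cells (-1.28 ± 0.12, edgeR adjusted p 0.00537), and was called under every alternative that kept the library term. Id2, an inhibitor of basic helix-loop-helix factors, stood at 426 and 508 against 912 and 705 (-0.80 ± 0.13, edgeR adjusted p 0.0416). Shh, the hedgehog ligand of the outer cortex, stood at 190 and 182 against 273 and 242 (-0.47 ± 0.07, edgeR adjusted p 0.0354). In these 3 genes both NR4A-high sums lay below both NR4A-low sums. This was so for 1538 of all 11483 genes tested (13.4%), and nothing is read from it. Pik3ip1, an inhibitor of PI3 kinase, fell by 1.41 on the log2 scale, Serpinb6b by 1.11, the progestin receptor gene Paqr7 by 0.86, Susd3 by 0.80 and Lasp1 by 0.69. Apart from Txnip, these falls did not pass with 1 matched cell or, by DESeq2, on all matched cells. Shh, Pik3ip1, Serpinb6b, Susd3 and Lasp1 also did not pass at 1200 CPM, nor Paqr7 at 300 CPM, nor Susd3 and Lasp1 after thinning.

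Of the 6 falls of at least 2-fold, 2 rested on very few cells, and these genes were named after their values were seen. Cxcl10, a chemokine, had 0 UMIs in NR4A-high cells, and its 100 and 208 UMIs in matched NR4A-low cells came from 2 cells in each library. Hbb-bs, a haemoglobin gene, had 15 and 0 UMIs in NR4A-high cells, and 96.5% of its 5496 UMIs in matched NR4A-low cells of library 1 came from 2 cells.

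The other lists held few calls or none. Among heat shock and chaperone genes 0 of 17 passed (median 0.17), among mitochondrially encoded genes 0 of 13 (median 0.14), among WNT pathway genes 0 of 24 (median -0.13), among interferon and antigen presentation genes 0 of 17 (median -0.08), among NF-kappa B and cytokine genes 0 of 11, among nuclear long noncoding RNAs 0 of 4 and among cell cycle genes 0 of 26. Of 16 unfolded protein and integrated stress response genes 1 rose, Ppp1r15a, and of 18 clock genes 2, Nfil3 and Per1. Ppp1r15a did not pass with DESeq2 (adjusted p 0.162) or with 1 matched cell (edgeR adjusted p 0.0923), where that list had 0 calls. Of 17 hedgehog and FGF genes Spry2 rose and Shh fell, and of 19 antioxidant genes Srxn1 rose and Txnip fell. Several of these counts depended on the fit. Against all NR4A-low cells, 8 of 13 mitochondrially encoded genes were called higher, beside 168 of all 12336 genes fitted. Over all genes, a block for each library and bin called 443 higher and 224 lower of 10137. With a block for each library and bin, calls were 7 higher of 13 mitochondrially encoded genes, 7 higher and 2 lower of 17 heat shock genes, 1 higher and 5 lower of 23 WNT genes, 2 higher and 2 lower of 9 NF-kappa B genes and 4 higher and 3 lower of 16 hedgehog and FGF genes. Interferon, cell cycle and noncoding RNA lists had 0 calls with RLE scaling, all NR4A-low cells, these blocks and 1 matched cell.

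Levels of several genes differed along the whole range of NR4A levels. Over bins of 0, under 200, 200 to under 600, 600 to under 1200 and at least 1200 CPM of Nr4a1 plus Nr4a2, Sik1 stood at 0.688, 1.35, 8.15, 40.9 and 85.3 CPM in library 1 and at 1.27, 2.70, 8.87, 20.2 and 73.6 CPM in library 2. Fdx1 stood at 2335, 3228, 4148, 5046 and 7077 CPM in library 1 and at 1625, 2473, 4338, 8689 and 9756 CPM in library 2. Both genes were higher in each bin than in the one before, in each library. Txnip ran the other way, at 292, 250, 202, 114 and 51.1 CPM in library 1 and at 469, 416, 298, 180 and 106 CPM in library 2. Fos differed between the libraries, with 24.5 CPM in the top bin of library 1, below the 46.4 CPM of the bin before it, and 211 CPM in that of library 2, which held 19 cells. Cyp11a1 stayed between 3136 and 3387 CPM in library 1 and between 3208 and 3710 CPM in library 2. These bins are a description of unmatched cells.

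**Figure D4:**
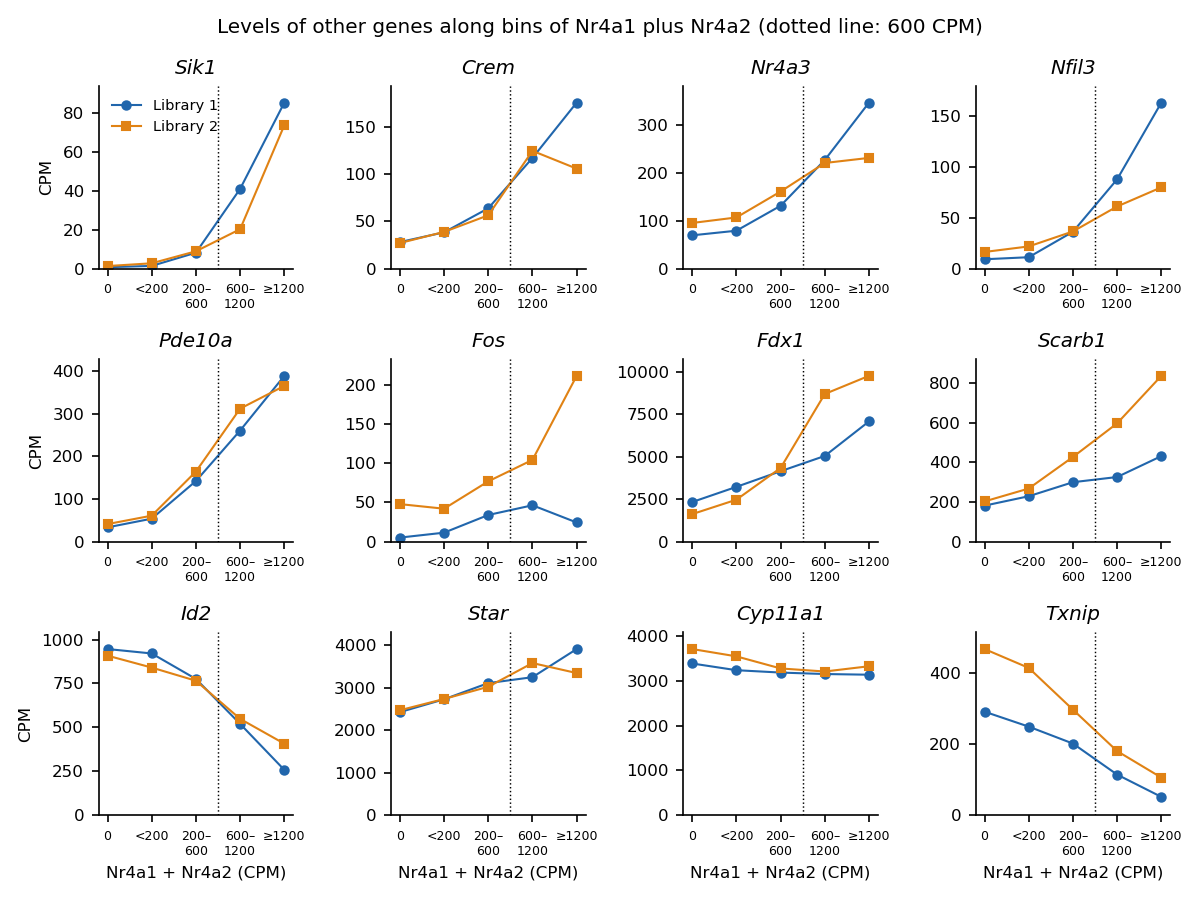
Each panel gives the level of 1 gene (y axis, CPM of the summed cells) in 5 bins of Nr4a1 plus Nr4a2 (x axis, CPM) for library 1 (circles) and library 2 (squares), with NR4A-high cells right of the dotted line. Sik1, Pde10a, Fdx1 and Scarb1 climb through the bins in both libraries, Txnip declines, and Cyp11a1 stays between 3136 and 3710 CPM.

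Single cells were also compared by the share with a UMI, after thinning each cell to 5000 UMIs, for genes already called above, so that these shares restate the same differences. Nr4a3 was found in 68.6% (exact 95% interval 62.9 to 73.9) and 63.7% (54.6 to 72.2) of NR4A-high cells, against 32.7% (30.3 to 35.2) and 44.3% (39.7 to 49.0) of matched NR4A-low cells. Sik1 was found in 26.6% (21.6 to 32.0) and 11.3% (6.31 to 18.2) of NR4A-high cells, against 0.966% (0.529 to 1.61) and 1.1% (0.357 to 2.54). At this depth most NR4A-high cells thus gave no Sik1 UMI. Without thinning, Sik1 was found in 63.8% and 32.3% of NR4A-high cells, against 3.52% and 6.89%. No share in a cell type known to lack these genes was taken.

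NR4A-high cells with more Nr4a2 than Nr4a1 differed from those with more Nr4a1 in some genes, given here as levels without a test. The 2 kinds also differed in NR4A level, with medians of 1523 and 905 CPM of the pair in cells with more Nr4a2 against 1091 and 777 CPM in cells with more Nr4a1, and the part of that level in the differences was not tested. Cells with more Nr4a2 had less Fos, at 19.8 and 66.3 CPM against 42.0 and 152 CPM in cells with more Nr4a1, and less Egr1, at 20.5 and 17.2 against 43.3 and 29.5 CPM. They had more Fdx1, at 7235 and 13139 against 5594 and 6493 CPM, and more Cyp11b2, at 132 and 419 against 92.9 and 233 CPM. The order was the same in both libraries for these 4 genes. Irs2 had opposite orders, at 74.8 and 25.2 against 58.4 and 42.2 CPM.

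The difference between NR4A-high and NR4A-low cells was also measured within Cyp11b2 bins, among cells with Cyp11b1 under 200 CPM. Fdx1 stood at 5089 and 4144 CPM in NR4A-high cells without Cyp11b2 UMIs, against 1809 and 1459 CPM in NR4A-low cells. At 200 CPM or more of Cyp11b2 it stood at 7938 and 11046 CPM in NR4A-high cells, against 6074 and 6517 CPM. An edgeR interaction test over 12 sums and 10188 genes, added after the data were seen, called 1 gene, Fdx1. The log2 difference of Fdx1 was 0.96 smaller at 200 CPM or more of Cyp11b2 (0.60) than without it (1.56), at -0.96 ± 0.11 (edgeR adjusted p 0.000582). The sums split the same 2 libraries by Cyp11b2 bin and class and left 3 residual degrees of freedom. Bins of 1 library thus acted as replicates, and the p-value does not measure the spread of the difference between libraries alone. The NR4A-low cells were all those of each bin, not matched on depth. Sik1, Crem and Pde10a had log2 differences of 4.91, 1.99 and 2.64 without Cyp11b2 and of 3.60, 1.14 and 1.47 at 200 CPM or more, and the change between bins did not pass for any of them (edgeR adjusted p 1, 1 and 0.787). Star, which chose the cells, stood at 3140 and 2446 CPM against 2243 and 2245 CPM without Cyp11b2, and at 4012 and 3916 against 3396 and 3282 CPM at 200 CPM or more.

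**Figure D5:**
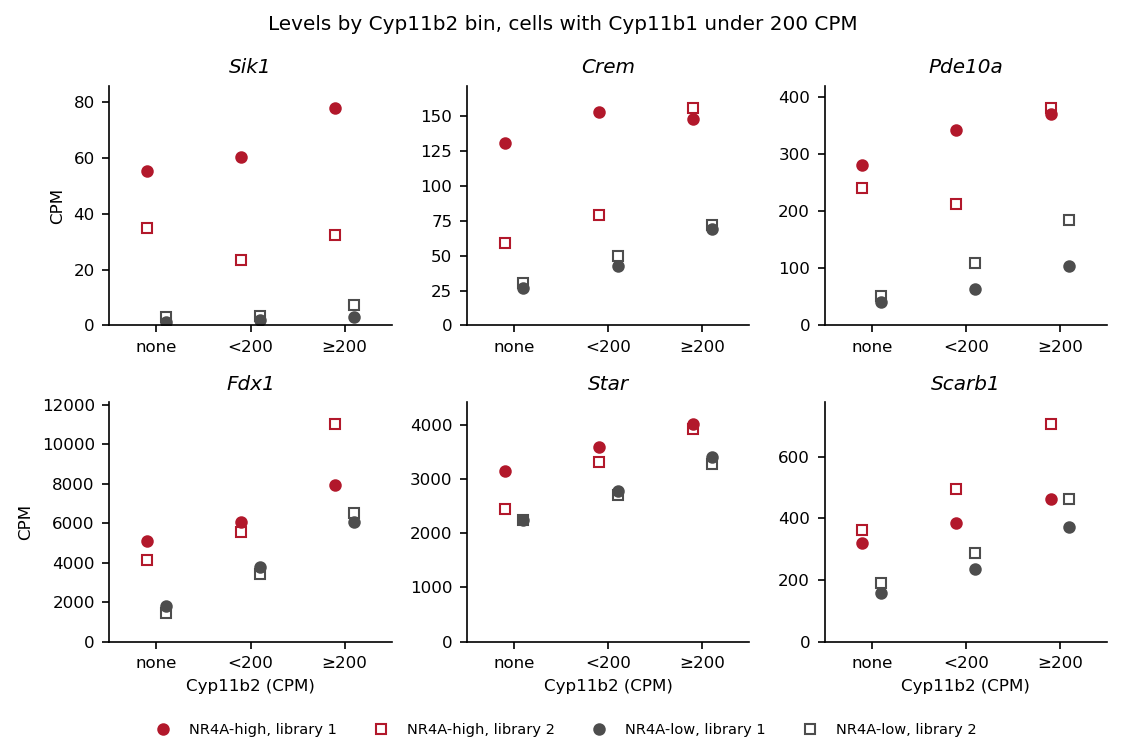
Levels of 6 genes (y axis, CPM) in NR4A-high (red) and NR4A-low (grey) cells by Cyp11b2 bin (x axis, CPM) among cells with Cyp11b1 under 200 CPM, with library 1 as filled circles and library 2 as open squares. Fdx1 is higher with more Cyp11b2 in both classes, and the ratio of NR4A-high to NR4A-low cells is largest in cells without Cyp11b2.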

How the data were processed

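The deposited matrices hold raw UMI counts for each gene and barcode. They come from Cell Ranger 3.1.0 on mm10 with added transgene features, per the file headers and the submitters' processing notes. Barcodes with at least 1000 UMIs, 500 genes and at most 30% mitochondrial UMIs were kept. Cells were binned by Cyp11b2 (none, under 200, 200 CPM or more) and Cyp11b1 (under 200, under 1000, 1000 CPM or more), and UMIs were summed per library and class. The sums were tested with edgeR 4.0.16 (TMM, filterByExpr, library as a term) in R 4.3.3, with Benjamini-Hochberg adjustment at 0.05. The library term is the replicate block and takes out differences in level between the libraries. The p-values rest on how far the difference between NR4A-high and NR4A-low sums varied between the 2 libraries. This spread was drawn toward that of other genes. Nothing says that the libraries come from separate animals, so it may be technical. Thinning kept 5000 UMIs per cell. Doublets were not removed, except in an alternative. On simulated counts of this comparison with 50 genes each at log2 1 and -1, 45 and 38 were called, and 7 of 11289 unchanged genes. The simulation gave all genes the same dispersion and gave each gene the same difference in both libraries. In the data, the single-library log2 differences lay over 1.5 times apart for 46 of the 96 genes called higher. Recovery at such a spread was not tested.

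The members and gene lists were chosen with earlier results of these data known. Named genes were the 12 largest called rises and the 8 largest called falls with the same sign in both libraries and at least 20 CPM, the 2 largest called changes of each list in each direction, and a set fixed by name. Other genes (Pde4d, Ier2, Btg1, Gem, Gadd45b, Scarb1, Alas1, Insig1, Idi1, Cyp51, Hmgcs1, Cre, Cxcl10 and Hbb-bs) were named after their values were seen. Gene coordinates are those of GENCODE for mm10, and promoter sequences are from RefSeq. Alternatives were other scaling, DESeq2 1.42.0, no filter on low counts, other matching, thresholds and cell filters. Some genes that the rule names are not reported here.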

Additional observations from a re-analysis of the deposited data

Results flagged for a closer look

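The log2 difference in Fdx1 between NR4A-high and NR4A-low cells changed by -0.959 at 200 CPM or more of Cyp11b2, relative to cells without Cyp11b2 UMIs. The edgeR interaction test called this difference between groups of cells, with bins of the same 2 libraries as replicates.

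Cells with at least 200 CPM of Star but under 2000 CPM of Malat1 were left out of the comparisons, and some of them reached the NR4A threshold. These were 4.14% in library 1 (35 of 845, exact 95% interval 2.90 to 5.71, median depth 14312 UMIs) and 1.11% in library 2 (2 of 180, 0.135 to 3.96, median depth 4433.5 UMIs).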

How the results depend on the processing

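The 96 genes called higher kept their direction under all 13 alternatives of the fit and at least 10 of the 12 called lower did. A gene not fitted under an alternative was counted as not keeping its direction. The count of calls moved widely. Against 108 calls (96 higher, 12 lower), edgeR gave 242 (206 and 36) with RLE size factors, 378 (260 and 118) without a filter on low counts, 51 (49 and 2) with 1 matched cell per NR4A-high cell and 217 (168 and 49) against all NR4A-low cells. It gave 667 (443 and 224) with a block for each library and bin, 214 (169 and 45) with cells thinned to 5000 UMIs, 167 (145 and 22) at 300 CPM, and 119 and 21 at 1200 CPM. It gave 225 (189 and 36) at 15% mitochondrial UMIs, 241 (201 and 40) without the highest doublet scores and 191 (164 and 27) at 600 CPM of Star and 4000 CPM of Malat1, while DESeq2 gave 67 (66 and 1). The cause of these shifts was not tested. The fit with a block for each library and bin had 6 residual degrees of freedom against 1 in the main fit. It took bins of the same 2 libraries as replicates, and its NR4A-low cells were not matched on depth. The fit on thinned cells drew the spread of each gene fully to that of other genes. In the gene lists RLE gave 53 calls against 31. Without the library term, that is without the replicate block, 0 genes passed. NR4A-high shares in libraries 1 and 2 were 9.08% and 11.6% after thinning, 11.4% and 17.1% at 300 CPM and 3.5% and 1.09% at 1200 CPM. Leaving out 1 library leaves no residual degree of freedom, so those values carry no test. The planned comparison of Cyp11b2 with high-Cyp11b1 cells was not run, with 7 and 12 NR4A-high cells at 1000 CPM or more of Cyp11b1.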
